A study of Sus scrofa with 10 samples.

Results

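RSAD2, MX1, MX2, IFIT1, IFIT2, OAS2, CMPK2, ISG15 and USP18 are interferon-stimulated genes, and their RNA was followed in the ovaries of 10 gilts. These 9 genes were chosen from the loci that differed in FPKM between the rpFSH treatment group and the control group of the same pigs. The difference between the groups is therefore given for them as a description. Calls by the tests applied to all loci are printed for them too, and nothing is concluded from those calls. Each gene was taken as the protein-coding locus of its name, and 9 of 9 were found among the 19972 protein-coding loci of a table of 43499 loci.

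Recombinant pig follicle-stimulating hormone (rpFSH) was given to gilts to raise the ovulation rate, and the question was which ovarian RNAs differ after it. The hormone came from cultured hamster ovary (CHO) cells. Pigs of both groups ate a daily 20 mg of altrenogest, a progestin that holds back oestrus, for 18 days starting at the age of 210 days, and went without it for 2 days. Then 5 pigs, the rpFSH treatment group, each received 1000 IU of rpFSH by injection, while 5 pigs injected with saline made up the control group. The series counts 5 gilts per group, whereas by the methods the sequenced pigs were drawn from larger groups. Whole ovaries were sampled at 234 days of age once the follicles on the surface had been removed, so the RNA is that of the tissue left behind. Replicates were separate pigs of 1 genetic background with 1 library each. The sample labels write the hormone as fpFSH and the control as untreated.

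Interferons are secreted when a cell senses foreign or misplaced nucleic acid. They bind receptors on the same or neighbouring cells and, through the JAK kinases, activate transcription factors that switch on a large group of genes that restrict viruses. In the ovary and the other reproductive tissues of livestock these genes are best known for their answer to interferons of viral infection and, in ruminants, to the interferon of the early conceptus.

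The libraries held 64873797 to 75114003 counts, and the library of rpFSH pig 4 was within that range at 69177976. Of its counts, 69.7% fell on protein-coding loci, against 64.7 to 74.7% over all pigs. At these depths a floor of 3 counts corresponds to 0.0399 to 0.0462 CPM, counts scaled to the library total. This floor and the intervals given here cover counting error only. They take each count as independent. The totals exceed the number of read pairs sequenced, so mates were probably counted singly and the intervals are too narrow. Levels are given in FPKM, which are scaled for transcript length and depth. The deposited values are of whole tissue, in which fewer cells of a type and less RNA per cell cannot be told apart.

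The ovarian markers GDF9, INHA, CYP11A1 and COL1A1 were present in every pig. The oocyte factor GDF9 was between 2.36 and 4.92 FPKM, the granulosa cell gene INHA between 1.34 and 68.7 FPKM, the steroidogenic enzyme CYP11A1 between 4.85 and 1758 FPKM, and the collagen gene COL1A1 between 67.0 and 685 FPKM. The RNA levels of these granulosa, luteal and stromal genes thus differed widely between pigs. Control pig 2 stood apart for several lists, with 2299 FPKM summed over 5 theca and luteal cell markers and 26.8 FPKM over 6 B and plasma cell markers.

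RSAD2 encodes viperin, a radical SAM enzyme that makes a chain-terminating nucleotide from CTP. Its locus (MSTRG.22384) lay on the minus strand of chromosome 3 between 128880859 and 128897837 of Sscrofa11.1. RSAD2 was at 0.206, 0.397, 0.167, 0.193 and 0.643 FPKM in control pigs 1 to 5 and at 0.234, 0.290, 0.491, 35.6 and 0.206 FPKM in rpFSH pigs 1 to 5. The level was high in rpFSH pig 4 alone, and the other 4 rpFSH pigs lay within the range of the control group. In counts, rpFSH pig 4 had 23765 and the other 9 pigs between 104 and 462. Its FPKM was 55.4 times that of the highest other pig, control pig 5. The primer pair with which the study measured RSAD2 by qRT-PCR is shown because RSAD2 had the largest excess, and its match to the locus was not tested:
RSAD2 forward: tgcattgtctgtcccaggtat
RSAD2 reverse: ttgaccgacaaaacacacgg

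CMPK2, a mitochondrial nucleotide kinase that supplies CTP, is the neighbour of RSAD2. It lay on the plus strand of chromosome 3 between 128903590 and 128917867 (MSTRG.22385), so the pair pointed away from each other with 5752 bp between them. CMPK2 was at 1.06, 1.57, 0.844, 0.660 and 2.08 FPKM in control pigs 1 to 5 and at 1.81, 1.22, 1.22, 12.4 and 1.49 FPKM in rpFSH pigs 1 to 5. Again rpFSH pig 4 alone was high, at 5.98 times the highest other pig, and the remaining rpFSH pigs overlapped with the control group. Outside rpFSH pig 4 the genes differed in level, and the median of the other 9 pigs was 0.234 FPKM for RSAD2 and 1.22 FPKM for CMPK2.

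MX1 and MX2 encode dynamin-like GTPases that trap the nucleocapsids of viruses. They lay in a row on the plus strand of chromosome 13, MX2 (MSTRG.10103) between 204798302 and 204831975 and MX1 (MSTRG.10104) between 204847561 and 204868477. MX1 was at 2.46, 5.47, 4.31, 3.25 and 6.99 FPKM in control pigs 1 to 5 and at 6.76, 5.28, 6.42, 85.6 and 5.23 FPKM in rpFSH pigs 1 to 5. This was the most abundant of the 9 transcripts, both in rpFSH pig 4 and by the median of the other pigs (5.28 FPKM). MX2 was at 1.82, 5.28, 1.61, 0.858 and 2.98 FPKM in the control pigs and at 2.48, 1.47, 3.76, 57.3 and 2.32 FPKM in the rpFSH pigs. Both genes were more than 10 times higher in rpFSH pig 4 than in any other pig (12.3 times for MX1 and 10.9 times for MX2), and the remaining pigs of the groups overlapped.

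OAS2 encodes an enzyme that makes 2'-5'-linked oligoadenylates from ATP on binding double-stranded RNA, which activate RNase L. Its locus (MSTRG.10810) lay on the minus strand of chromosome 14 between 38827673 and 38861977. OAS2 was at 1.82, 3.94, 2.99, 1.63 and 3.65 FPKM in control pigs 1 to 5 and at 3.73, 3.43, 2.40, 38.2 and 3.75 FPKM in rpFSH pigs 1 to 5. The value of rpFSH pig 4 was 9.68 times the highest of the other 9, in which the range of the rpFSH pigs (2.40 to 3.75 FPKM) lay inside that of the control group (1.63 to 3.94 FPKM). The locus overlapped the RefSeq gene OAS2 over 20025 bp and the RefSeq gene OAS1 over 10895 bp of the same assembly. Reads of the OAS1 gene may thus be part of its value.

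IFIT1 and IFIT2 belong to a family of tetratricopeptide proteins that bind foreign RNA and hold back its translation. Both loci lay on the plus strand of chromosome 14, IFIT2 (MSTRG.11962) between 100998129 and 101206770 and IFIT1 (MSTRG.11964) between 101213979 and 101225165. The latter lay wholly inside the RefSeq gene LIPA. Its name is uncertain, because 10436 bp of its 11187 bp overlapped the RefSeq gene IFIT3, whereas RefSeq places IFIT1 between 101237403 and 101249486. It is called IFIT1 here as in the table. IFIT1 ranged from 1.27 to 2.46 FPKM in the control group, from 1.34 to 2.93 FPKM in rpFSH pigs 1, 2, 3 and 5, and was 18.98 FPKM in rpFSH pig 4. For IFIT2 the control group ranged from 0.681 to 1.35 FPKM and the same 4 rpFSH pigs from 0.768 to 1.39 FPKM, against 7.94 FPKM in rpFSH pig 4. The IFIT2 locus spans 208642 bp, of which 5.21% overlapped the RefSeq gene IFIT2 and 36.1% the RefSeq gene LIPA, and it holds the whole of CH25H. Its value is thus not that of IFIT2 alone. The family is made of similar copies, and how reads that match several of them were counted is not stated.

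ISG15 is a ubiquitin-like protein that is joined to other proteins, and USP18 is the protease that removes it and also blocks the type I interferon receptor, which ends the response. ISG15 (MSTRG.27918) lay on chromosome 6 between 63362889 and 63365398, and USP18 (MSTRG.25757) on chromosome 5 between 70183279 and 70228001, both on the plus strand. ISG15 was at 1.47, 1.62, 1.05, 1.74 and 1.90 FPKM in control pigs 1 to 5 and at 1.45, 1.45, 1.16, 32.2 and 1.00 FPKM in rpFSH pigs 1 to 5. Next to RSAD2 it was the gene with the largest excess in rpFSH pig 4, 17.0 times the highest other pig, while the lowest of the 10 values was also in the rpFSH treatment group. The ISG15 locus overlapped a further RefSeq gene, LOC110261384, over 1256 bp. USP18 ranged from 1.56 to 2.92 FPKM in the control group and from 1.80 to 2.96 FPKM in rpFSH pigs 1, 2, 3 and 5, and was 17.3 FPKM in rpFSH pig 4. This was 5.86 times the highest other pig. That the inhibitor was high in the same pig as the antiviral effectors is no result, since the difference that chose the genes rests on that pig.

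**Figure D1:**
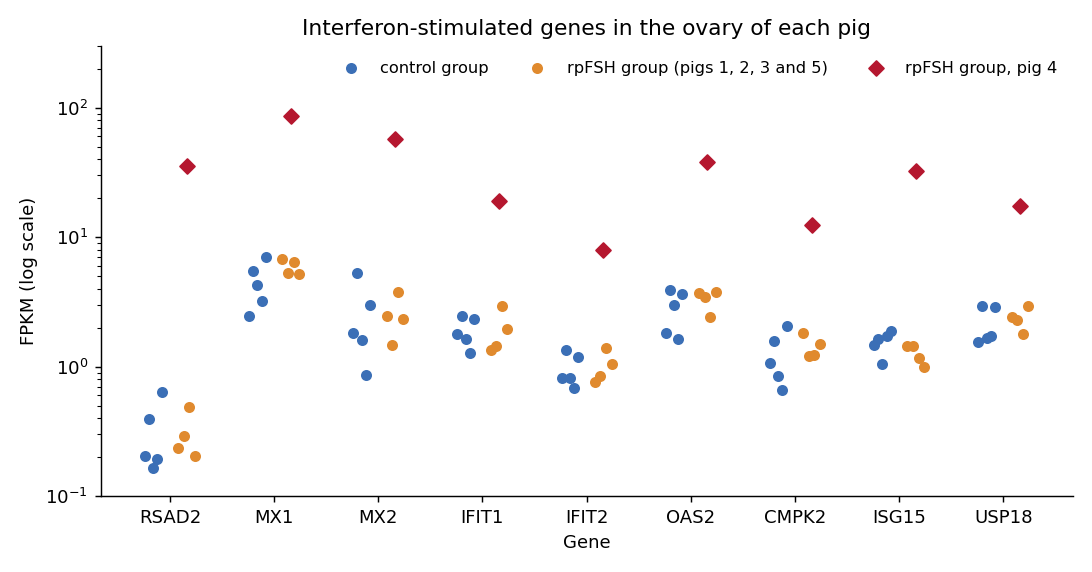
FPKM of each gene in each pig, on a log axis. Blue points are the 5 control pigs, orange points are rpFSH pigs 1, 2, 3 and 5, and the red diamond is rpFSH pig 4, which lies above the other 9 pigs for each of the 9 genes (85.6 FPKM for MX1, 7.94 FPKM for IFIT2).

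Summed over the 9 genes, rpFSH pig 4 had 305.6 FPKM and the other pigs between 12.02 and 25.0 FPKM. As a share of all counts this was 0.217% in rpFSH pig 4 (95% Wilson interval 0.216 to 0.218%), against 0.00781% (0.00762 to 0.00802%) in control pig 4, the lowest, and 0.0177% (0.0174 to 0.0180%) in control pig 2, the highest of the others. The order of the genes also differed. RSAD2 was the lowest of the 9 by the median of the other pigs and the fourth in rpFSH pig 4, where it made up 11.7% of the summed FPKM against a median of 1.59%. By contrast MX1 kept its share, with 28.0% against 28.4%.

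Among the other 9 pigs the levels also varied, for MX2 from 0.858 to 5.28 FPKM. Control pig 4 had the lowest value for 5 of the 9 genes, and control pig 5 the highest for 4, followed by control pig 2 and rpFSH pig 3 with 2 each and rpFSH pig 5 with 1. For 9 of 9 genes the range of rpFSH pigs 1, 2, 3 and 5 overlapped that of the control group.

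With all 10 pigs the fitted log2 fold change of rpFSH over control was positive for 9 of 9 genes. It was 4.512 ± 1.605 (SE) for RSAD2, 2.40 ± 1.07 for MX2, 2.29 ± 0.86 for MX1, 2.27 ± 1.01 for ISG15 and 1.88 ± 0.79 for OAS2. Lower values were found for CMPK2 (1.55 ± 0.71), IFIT1 (1.496 ± 0.728), USP18 (1.32 ± 0.63) and IFIT2 (1.31 ± 0.65). A locus was called where edgeR's quasi-likelihood test on the counts gave an unadjusted P under 0.05 and a log2 fold change above 1 or below -1. These are the limits of the study. By this rule RSAD2, MX1, MX2, ISG15 and OAS2 were called up, 5 of 9, in a table where 0.865% of 34569 loci were called up and 1.87% down. Since the contrast chose the genes, nothing is read from these calls or from their difference from the share over all loci. Of all loci, 1761 had an unadjusted P under 0.05 and 0 an adjusted p under 0.05 by edgeR, against 159 by DESeq2 and 0 by limma.

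Without rpFSH pig 4 the fitted log2 fold changes of the 9 genes lay between -0.26 ± 0.24 (ISG15) and 0.42 ± 0.30 (MX1). RSAD2 was at -0.054 ± 0.46 and MX2 at -0.0055 ± 0.51, and 3 of the 9 values were negative. None of the 9 was called by edgeR in this fit, in which 0.913% of 35039 loci were called up. The group means show the same. RSAD2 averaged 0.321 ± 0.202 FPKM (SD, n = 5) in the control group and 7.37 ± 15.8 FPKM (SD, n = 5) in the rpFSH treatment group, which became 0.305 ± 0.129 FPKM (SD, n = 4) without rpFSH pig 4. Leaving out other pigs changed the number called but in no case the sign. It was 1 without control pig 1 or 4, 4 without control pig 2, 2 without control pig 3 and 3 without control pig 5. It was 9 without rpFSH pig 1 or 2 and 7 without rpFSH pig 3 or 5. These counts are a description only, since the contrast chose the genes and rpFSH pig 4 was in each of these fits. The share of all loci called up moved as well, with 0.736, 1.23, 0.937, 0.968 and 1.09% without control pigs 1 to 5 and 0.997, 1.23, 0.7997 and 0.853% without rpFSH pigs 1, 2, 3 and 5. In every fit with 1 pig left out, 1.36 to 2.47% of loci were called down. DESeq2, which withholds P where 1 sample is extreme, gave none to 9 of 9, and limma on log2 (FPKM + 1), with the fold change taken from the group mean FPKM, called 0 of 9.

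**Figure D2:**
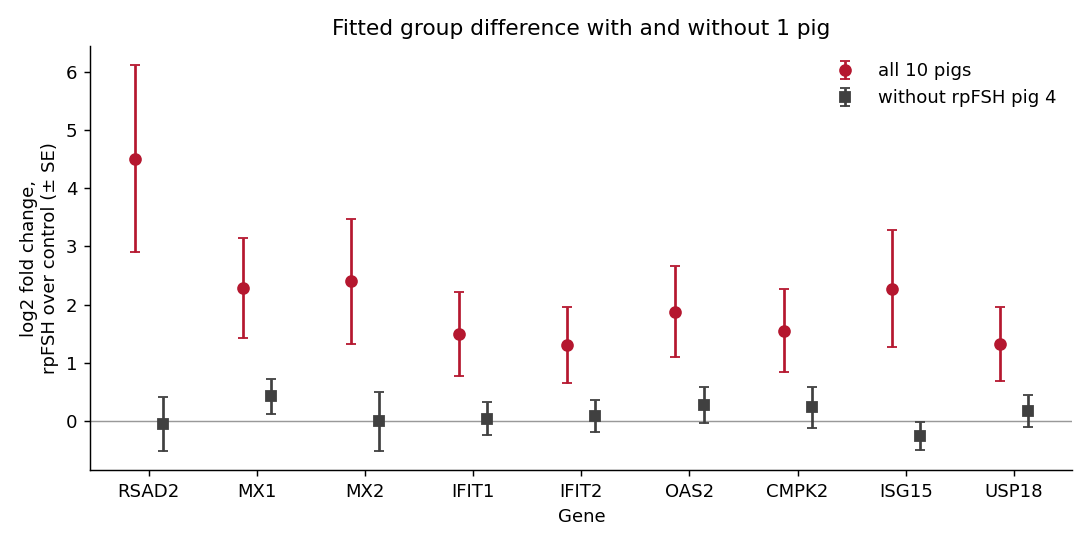
Fitted log2 fold change of rpFSH over control for each gene (points) with its SE (bars), with all 10 pigs in red and without rpFSH pig 4 in grey. The red points run from 1.31 (IFIT2) to 4.51 (RSAD2), and the grey points lie between -0.26 and 0.42.

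To see whether the genes also moved together apart from rpFSH pig 4, RSAD2 was compared with each of the other 8 over the remaining 9 pigs on log2 (FPKM + 1). Pearson's r was positive for 8 of 8, from 0.305 for OAS2 to 0.771 for IFIT2, and Spearman's rho ran from 0.317 to 0.783. By two-sided exact permutation tests IFIT2 (r = 0.771, p = 0.0149, adjusted p = 0.0844) and IFIT1 (r = 0.742, p = 0.0211, adjusted p = 0.0844) had the smallest p of r. For rho it was MX1 (rho = 0.783, exact p = 0.0172, adjusted p = 0.0865). After Benjamini-Hochberg adjustment over the 8 relations 0 had an adjusted p under 0.05 by either measure, with 2 under 0.05 unadjusted for r and 4 for rho. Without control pig 5 and rpFSH pig 3, the 2 pigs with the RSAD2 values farthest from the median, r was between 0.437 and 0.756 over 7 pigs, and the smallest exact permutation p was 0.0571. So 0 of 8 were under 0.05 unadjusted with fewer pigs, although r did not fall for every gene. It rose for MX2 from 0.651 to 0.756, for OAS2 from 0.305 to 0.516, for USP18 from 0.425 to 0.636 and for ISG15 from 0.430 to 0.462. For MX1, IFIT1, IFIT2 and CMPK2 it fell. Each group alone holds fewer than 6 of these pigs, so r was not taken within groups.

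**Figure D3:**
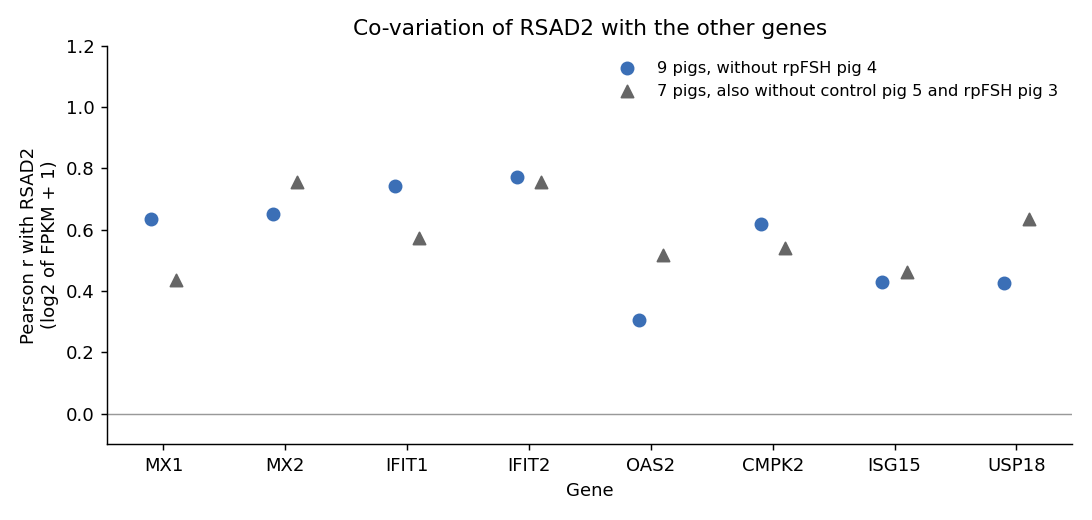
Pearson's r of each gene with RSAD2 on log2 (FPKM + 1), over 9 pigs without rpFSH pig 4 (circles) and over 7 pigs after control pig 5 and rpFSH pig 3 were also left out (triangles). The circles lie between 0.305 and 0.771 and the triangles between 0.437 and 0.756.

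The steps of the pathway were then followed from the ligands to the targets, with lists of genes grouped by role. Interferon ligand loci numbered 26, of which 21 passed the filter on low counts. By edgeR 0 of 21 were called, with 1 at an unadjusted P under 0.05, and DESeq2 and limma called 0. IFNB1, the gene of interferon beta, had a count of 0 in every pig, and IFNG, that of interferon gamma, had a count of 0 in rpFSH pig 4 and at most 8 in the others. The most abundant ligands were IFN-DELTA-7, at 7.45 FPKM in rpFSH pig 4 and 5.47 to 9.16 FPKM in the others, and IFN-ALPHA-15, at 4.63 FPKM against 3.35 to 5.58 FPKM. Thus rpFSH pig 4 was inside the range of the other pigs for both. Summed over the list it had 43.3 FPKM, sixth of the 10 pigs, which ranged from 37.3 to 58.1 FPKM. The loci of IFN-DELTA-7 and IFN-ALPHA-15 carry 2 and 5 gene names, and ligand loci are near-identical copies whose reads can be shared, so these are not values of single ligands.

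Of the 6 receptor genes 5 had a locus, and 0 of 5 were called by edgeR, with 1 at an unadjusted P under 0.05 and 0 called by DESeq2 or limma. That 1 was IFNAR1, a chain of the type I interferon receptor (log2 fold change 0.31 ± 0.11, edgeR adjusted p = 0.947), at 20.3 to 25.7 FPKM in the control group and 25.5 to 30.9 FPKM in the rpFSH treatment group, with 29.9 FPKM in rpFSH pig 4. Summed over the 5 loci, rpFSH pigs 4 and 5 were the highest, with 48.1 and 48.8 FPKM against 35.1 to 41.6 FPKM in the others. IFNGR1, which binds interferon gamma, was at 7.80 FPKM in rpFSH pig 4 and between 5.19 and 8.53 FPKM in the other pigs.

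Sensors of nucleic acid included genes that were high in rpFSH pig 4. DDX58, which encodes the RNA sensor RIG-I and whose locus also carries the name TOPORS, was at 29.2 FPKM there and at 4.32 to 6.19 FPKM in the other 9 pigs. ZBP1, a sensor of Z-form nucleic acid, was at 10.2 FPKM against 0.360 to 1.89 FPKM. DHX58, which encodes LGP2 of the same family as RIG-I, was at 6.93 FPKM and thus below rpFSH pig 1 at 7.95 FPKM. Its locus also carries the names RAB5C and KAT2A, so that value is not of DHX58 alone. Over the 13 sensors and adaptors the summed level was 82.9 FPKM in rpFSH pig 4 and at most 41.6 FPKM elsewhere. In the comparison of the groups 0 of 13 were called, and 0 had an unadjusted P under 0.05 by edgeR, DESeq2 or limma. DDX58 had a log2 fold change of 1.01 ± 0.55 with all pigs and 0.0046 without rpFSH pig 4.

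Signal transducers showed the same difference between members of a step. IRF7, the factor that amplifies interferon transcription, was at 5.21 FPKM in rpFSH pig 4 and between 0.139 and 0.899 FPKM in the others. IRF3, which is present before any response and is switched on by phosphorylation, was at 12.1 FPKM and within the range of 8.01 to 13.1 FPKM. Of the 13 transducers rpFSH pig 4 had the highest value for 10, but was more than 2 times the next pig for 1, IRF7. By edgeR 0 of 13 were called, with 0 at an unadjusted P under 0.05. DESeq2 called 1 up (1.05% of all loci) and limma 0 (0.66% of all loci). By edgeR it was 1 up without control pig 5 (1.09% of all loci) and 1 up without rpFSH pig 5 (0.853%).

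Inhibitors other than USP18 were not highest in rpFSH pig 4 for any of 6 genes. SOCS3, a feedback inhibitor of JAK kinases that many cytokines induce, was at 15.8 FPKM there and reached 36.6 FPKM in control pig 2 and 30.7 FPKM in rpFSH pig 1. PTPN6, a phosphatase of blood cells, was at 7.61 FPKM against 6.41 to 10.2 FPKM, at a locus that also carries the names ATN1 and C12orf57. By edgeR 0 of 6 were called, with 1 at an unadjusted P under 0.05, and DESeq2 and limma called 0. Without control pig 2, the pig highest for SOCS3, it was 1 up, in an edgeR fit that called 1.23% of all loci up.

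Other interferon-stimulated genes were represented by 42 of 54 listed symbols in 41 loci. Of the 38 loci with a mean of at least 0.5 FPKM, rpFSH pig 4 had the highest value for 31, was at least 2 times the highest other pig for 21 and at least 4 times for 6. The median of this ratio was 2.07, against 9.68 for the 9 genes chosen. The latter is no benchmark, since those genes were chosen for a group difference that rests on this pig. Summed over the 41 loci rpFSH pig 4 had 512 FPKM, and the other pigs between 116.7 and 219.6 FPKM.

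Between the groups 3 of the 39 loci tested were called up and 0 down by edgeR, in a table where 0.865% of loci were called up and 1.87% down. The median log2 fold change of the list was 0.43 against -0.0026 over all loci tested. The 3 were IFITM3, DDX60 and EPSTI1. Without rpFSH pig 4 the median was -0.077 and 0 of 39 were called by edgeR, with 0 at an unadjusted P under 0.05. The number called was 1 without control pig 1 or 4, 2 without control pig 2 or 3, 5 without control pig 5, rpFSH pig 1, rpFSH pig 2 or rpFSH pig 5 and 6 without rpFSH pig 3, in fits that called 0.736% (without control pig 1) to 1.23% (without rpFSH pig 2) of all loci up. It was 3 by DESeq2, which called 1.05% of all loci up, and 1 by limma, which called 0.66% up. The 3 of DESeq2 were HERC6, IFITM3 and UBE2L6, and it gave no P to 6 loci of the list. Each of these fits other than the 1 without rpFSH pig 4 held IFITM3.

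IFITM3, a membrane protein that blocks the entry of viruses, differed from the pattern of 1 pig. It was at 2.63, 4.59, 2.62, 3.22 and 5.93 FPKM in control pigs 1 to 5 and at 5.09, 3.01, 6.99, 19.01 and 11.6 FPKM in rpFSH pigs 1 to 5. The 3 highest values were those of rpFSH pigs 4, 5 and 3, and rpFSH pigs 1 and 2 lay inside the control range. By edgeR the log2 fold change was 1.27 ± 0.46 (adjusted p = 0.947), and 0.83 ± 0.40 without rpFSH pig 4, where it was no longer called. The locus carries 3 gene names, so its reads are not those of IFITM3 alone. DDX60, a helicase that promotes RIG-I signalling, was at 9.55 FPKM in rpFSH pig 4 and at 0.364 to 0.924 FPKM in the others, and its log2 fold change went from 2.03 ± 0.91 (edgeR adjusted p = 0.964) to -0.014 without that pig. For EPSTI1, at 10.9 FPKM against 1.05 to 2.16 FPKM, it went from 1.43 ± 0.59 (edgeR adjusted p = 0.9504) to 0.36.

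IFI6, a mitochondrial protein that inhibits cell death, was the most abundant gene of the list and did not share the pattern. It was at 2.89, 11.6, 6.74, 3.26 and 55.6 FPKM in control pigs 1 to 5 and at 12.03, 7.69, 6.91, 46.7 and 33.6 FPKM in rpFSH pigs 1 to 5. High values were thus found in control pig 5 and rpFSH pig 5 as well as in rpFSH pig 4, and the groups overlapped. LGALS3BP, a secreted glycoprotein, came next in abundance, at 52.1 FPKM in rpFSH pig 4 and between 8.48 and 18.2 FPKM in the others.

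Genes typical of interferon gamma were split. CXCL10, a chemokine for T cells, was at 18.3 FPKM in rpFSH pig 4 and at 0.218 to 1.46 FPKM in the others. B2M, the light chain of MHC class I, was at 31.7 FPKM in rpFSH pig 4 but at 45.7 FPKM in control pig 2 and 32.0 FPKM in control pig 5. WARS, the tryptophanyl-tRNA synthetase, was at 9.30 FPKM and below rpFSH pig 1 at 10.97 FPKM. Of the 14 loci with a mean of at least 0.5 FPKM, rpFSH pig 4 had the highest value for 9, with a median of 2.71 times the median of the other pigs, and 2 were at least 2 times the highest other pig. None of the 16 tested was called by edgeR, and 0 had an unadjusted P under 0.05 by edgeR, DESeq2 or limma. Without control pig 2, rpFSH pig 1, rpFSH pig 2 or rpFSH pig 5 it was 1 up, in fits that called 1.23, 0.997, 1.23 and 0.853% of all loci up. Without rpFSH pig 4 it was 1 down, in a fit that called 1.77% of all loci down. The summed level of the list was highest in rpFSH pig 4, at 127.4 FPKM against 35.96 to 107.0 FPKM.

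**Figure D4:**
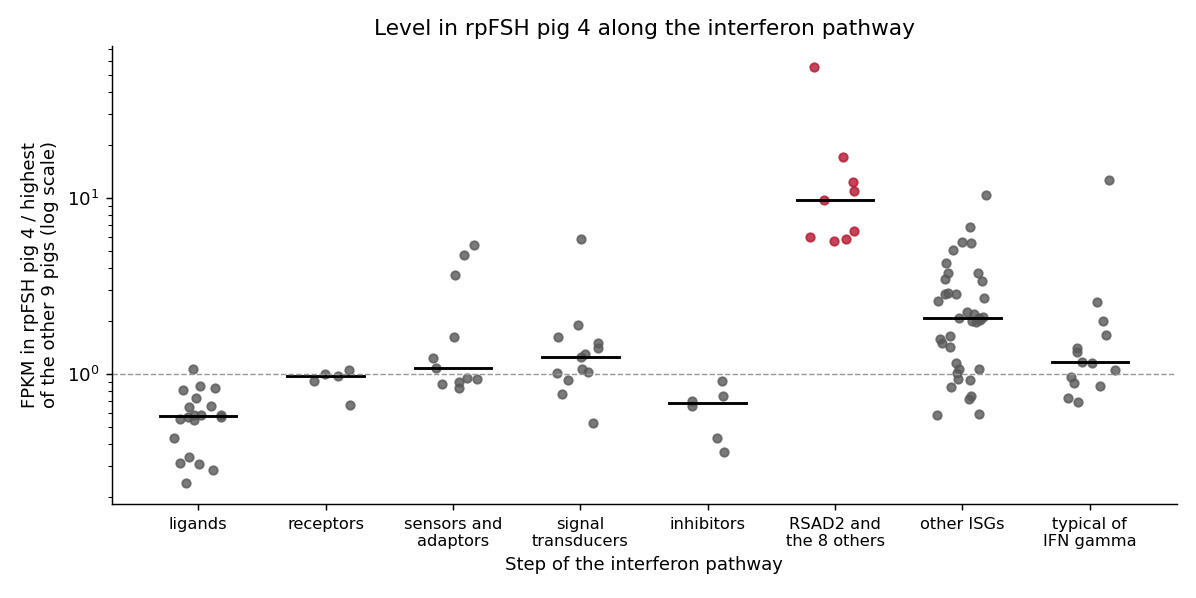
FPKM in rpFSH pig 4 divided by the highest of the other 9 pigs, on a log axis, for each locus with a mean of at least 0.5 FPKM, by step of the pathway. Black bars are medians and the dashed line is a ratio of 1. The 9 genes chosen (red) have a median of 9.68, which rests on how they were chosen, and the other interferon-stimulated genes (ISGs) of 2.07. The ligands have a median of 0.573 and the receptors of 0.967. The highest of 9 pigs usually lies above any 1 pig without an excess, so a ratio under 1 is no decrease. Relative to the median of the other pigs, the ligands have a median of 0.984 and the receptors of 1.26.

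Markers of immune cells were examined in the same libraries. The T and NK cell markers, 10 of 10 found, summed to 8.87, 11.9, 7.78, 6.73 and 11.3 FPKM in control pigs 1 to 5 and to 8.86, 5.62, 10.6, 12.4 and 7.34 FPKM in rpFSH pigs 1 to 5. The most abundant, CD3G, was at 4.52 FPKM in rpFSH pig 4 and 3.66 to 6.49 FPKM in the others, and CD2 was at 2.43 FPKM, 2.21 times the highest other pig. Thus rpFSH pig 4 had the highest sum, close to control pig 2. The locus of CD3G also carries the name UBE4A and makes up much of the sum. Over the 10 markers rpFSH pig 4 was at a median of 1.78 times the median of the other pigs, and highest for 1.

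The macrophage and monocyte markers, 8 of 8 found, summed to 53.4, 56.9, 44.1, 42.8 and 46.5 FPKM in control pigs 1 to 5 and to 55.4, 37.9, 54.1, 57.8 and 56.1 FPKM in rpFSH pigs 1 to 5. CD68 was the most abundant, at 27.9 FPKM in rpFSH pig 4 and 22.4 to 44.4 FPKM elsewhere. Its locus also carries the name EIF4A1, a translation factor of all cells, so the sum is in large part not of macrophages alone. Over the 8 markers rpFSH pig 4 was at a median of 1.97 times the median of the other pigs, and highest for 1, MRC1.

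The 2 of 6 dendritic cell markers found, XCR1 and FLT3, summed to 0.239, 0.276, 0.278, 0.113 and 0.260 FPKM in control pigs 1 to 5 and to 0.164, 0.193, 0.274, 0.415 and 0.366 FPKM in rpFSH pigs 1 to 5, with XCR1 at 0.319 FPKM in rpFSH pig 4. The defining neutrophil markers S100A8 and S100A9 had a count of 0 in rpFSH pig 4, as in most other pigs, and at most 258 and 9 counts elsewhere. In rpFSH pig 4 the 4 markers found summed to 0.168 FPKM, the lowest of all pigs. B and plasma cell markers came to 5.34 FPKM there and to between 3.69 and 26.8 FPKM elsewhere, and the most abundant, CD79A, shares its locus with ARHGEF1. The part of immune cells in the level of the interferon-stimulated genes was not tested.

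The remaining tissue lists did not put rpFSH pig 4 highest. Its summed level was 87.1 FPKM for 5 endothelial markers (33.7 to 94.6 FPKM elsewhere), 25.6 FPKM for 4 granulosa cell markers (3.41 to 81.3 FPKM), 347 FPKM for 5 theca and luteal cell markers (13.8 to 2299 FPKM), 812 FPKM for 6 stroma and smooth muscle markers (177.8 to 1485 FPKM) and 9.95 FPKM for 6 oocyte markers (4.94 to 18.2 FPKM), of which FIGLA had a count of 0. 

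Over the 10 cell lists 0 loci were called up between the groups by edgeR, DESeq2 or limma. By edgeR 3 of the 51 loci tested were called down, against 1.87% of all loci, the plasma cell genes JCHAIN and MZB1 and the stroma gene LUM, and these 3 alone had an unadjusted P under 0.05. For JCHAIN, the joining chain of antibodies, control pig 2 had 22.4 FPKM. Of the B and plasma cell markers, 1 was called down without control pig 2 (1.53% of all loci), by DESeq2 (2.31%) and by limma (1.11%). For stroma it was 0 without control pig 5 (1.36% of all loci). Without control pig 2, 2 theca and luteal cell markers were called up, in a fit that called 1.23% of all loci up. Without control pig 3 or rpFSH pig 4, 1 neutrophil marker was called up (0.937 and 0.913% of all loci), whereas 2 were called down with no filter or a mean FPKM minimum of 0.1 (2.60 and 2.50% of all loci). Without rpFSH pig 4, 1 T and NK cell marker was called down (1.77% of all loci).

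How many protein-coding loci stood above the other 9 pigs was then counted for each pig in turn, among the 12682 with a mean of at least 0.5 FPKM. In rpFSH pig 4, 22 loci (0.173%) were at least 4 times the highest of the others and 58 (0.457%) at least 2 times. The 22 were made up of the 9 genes chosen, 10 loci of the interferon lists and 3 others. Of the 22, 2 reached the mean of 0.5 FPKM only through rpFSH pig 4, RSAD2 (0.314 FPKM over the other 9 pigs) and IRF7. Loci of the 58, and of the lists held to this minimum, may have passed in the same way, which was not counted. Control pig 2 had 58 such loci, control pig 5 had 55 and rpFSH pig 1 had 16, with 0 from the interferon lists in each, and the other 6 pigs had 0 to 3. So rpFSH pig 4 was not the library with the most loci apart. The 9 genes were chosen for a group difference that rests on this pig, so their place in its set is no result. At least 2 times the others were 237 loci in control pig 2, 270 in control pig 5 and 101 in rpFSH pig 1. Of these, 0, 1 and 1 were of the interferon lists, against 27 of the 58 in rpFSH pig 4. The lists too were chosen with earlier results of these data known, so the counts of list loci are a description only.

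**Figure D5:**
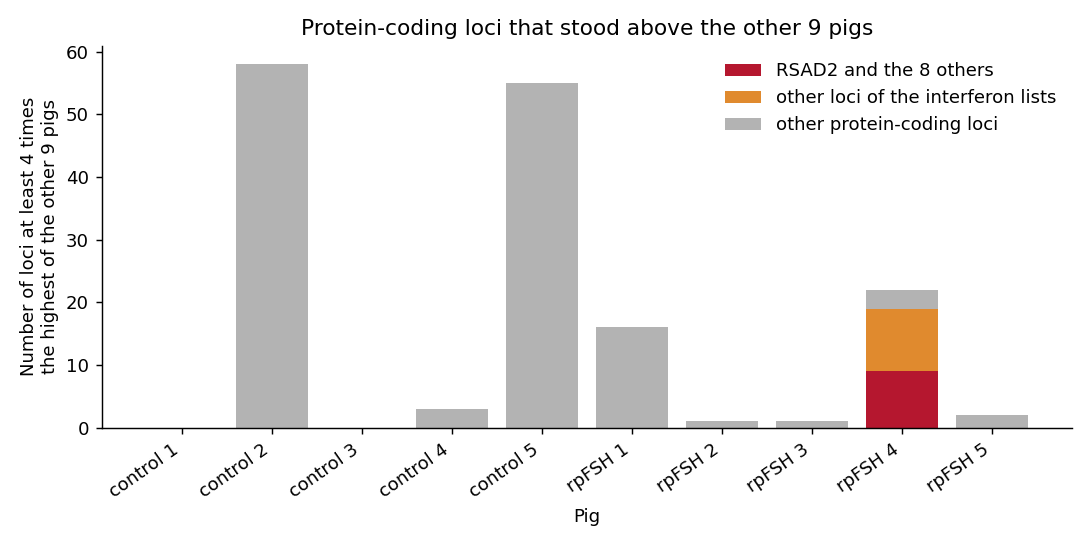
Number of protein-coding loci with a mean of at least 0.5 FPKM whose FPKM in a pig was at least 4 times the highest of the other 9, for each pig. In rpFSH pig 4 the bar of 22 holds the 9 genes chosen (red), 10 loci of the interferon lists (orange) and 3 other loci (grey), and in control pigs 2 and 5 the bars of 58 and 55 hold no locus of these.

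The 10 loci most like the 9 genes by this measure, the ratio of rpFSH pig 4 to the highest of the other pigs, held 7 of the lists. They were CXCL10 (12.6 times), DDX60 (10.3), VNN1 (7.80), HERC5 (6.78), RFLNA (6.001), IRF7 (5.79), a locus of chromosome 9 described as a very large interferon-inducible GTPase (5.60), BST2 (5.56), PARP14 (5.51) and ZBP1 (5.40). HERC5 is the ligase that joins ISG15 to its targets, BST2 (tetherin) holds budding viruses at the cell surface, and PARP14 transfers ADP-ribose to proteins. VNN1, a pantetheinase, was at 19.3 FPKM in rpFSH pig 4 and 0.375 to 2.47 FPKM in the others, and RFLNA, an actin-organising protein, at 13.5 FPKM against 0.395 to 2.25 FPKM. These last genes were on no interferon list.

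Likeness to the mean of the 9 genes over the other 9 pigs named different loci. The highest Pearson's r among 12673 protein-coding loci were those of a galectin 9 locus on chromosome 12 (0.963), AHR (0.959), SETD3 (0.957), PXN (0.942) and CYSLTR2 (0.939), given without a test because they were ranked by r. AHR is the aryl hydrocarbon receptor, SETD3 a methyltransferase of actin, PXN the focal adhesion protein paxillin and CYSLTR2 a leukotriene receptor. The galectin 9 locus was at 7.31 FPKM in rpFSH pig 4, 2.02 times the highest other pig. The other 4 were not highest in that pig, with AHR at 6.96 FPKM there and 9.48 FPKM in control pig 2.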

How the data were processed

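FPKM values and whole-number counts per locus were used as the authors deposited them for 10 Sus scrofa ovary libraries, with 5 pigs in either group by the sample labels. According to the methods and the submitters' processing notes (HISAT2 2.0, Bowtie 0.12.2, StringTie 1.3.0), the authors trimmed reads with Cutadapt, mapped them to Sscrofa11.1, and estimated FPKM with StringTie and Ballgown. How the deposited counts were made is not stated. The methods describe a library with a dUTP-marked strand, but not whether strand was used in counting, so reads of a gene and an antisense locus may be mixed. They also describe rRNA removal and a HiSeq, the labels poly(A) selection and a NovaSeq. The lowest FPKM is written as 0.0001.

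Counts were compared between the groups by edgeR 4.0.16 (TMM, filterByExpr with a minimum count of 10, glmQLFit and glmQLFTest, two-sided) on all loci in R 4.3.3, with the SE taken as the absolute log2 fold change over the square root of F, with Benjamini-Hochberg adjustment over all loci tested, and checked on simulated data. Alternatives were DESeq2 1.42.0, limma 3.58.1 with trend on log2 FPKM with a pseudocount of 1 or 0.1 (fold change as the log2 ratio of group mean FPKM), other scalings and filters, the replicate number as a block, and each pig left out. Other steps used Python 3.11.15, numpy 2.4.6, pandas 2.3.3, scipy 1.17.1 and matplotlib 3.10.9. No 2 pigs of a group were so alike as to be 1 library deposited again (chi-square per degree of freedom of 99.8 to 574). The 9 genes and all lists were chosen with earlier results of these data known.

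Named genes are the 9, of each pathway list the called loci (at most 5, by absolute log2 fold change) and the 2 with the highest mean FPKM (1 signal transducer that this rule selects is not reported by itself), the 10 loci highest in rpFSH pig 4 relative to the next pig, and the 5 with the highest r with the mean of the 9. CXCL10, IRF7 and ZBP1 are named among the former 10, and HERC6, UBE2L6, CD2, MRC1, IFNB1, IFNG, JCHAIN, MZB1, LUM and the remaining markers after their values were seen. Primer sequences are those of the study, and gene positions those of the table, with RefSeq genes of Sscrofa11.1 for overlaps.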

Additional observations from a re-analysis of the deposited data

Results flagged for a closer look

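Within each group of 5 pigs, the gap between the highest or lowest pig and its nearest neighbour was divided by the whole range, and values above Dixon's 95% limit for 5 samples are given. Chance flags about 1 in 20 groups of normally distributed values. FPKM were used without logs, and the genes and lists share the same pigs, so the counts below are not set against that rate. It also does not apply to genes chosen for this pattern or for a difference that rests on it. Such are the 9 genes, the 10 loci ranked by rpFSH pig 4 and the called EPSTI1. The lists were chosen with earlier results known. Of 78 groups of named genes 30 passed the limit, and of 34 groups of summed lists 11, and 28 of these 41 were for rpFSH pig 4.

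For the 9 genes that pig was apart in 9 of 9, with 0.992 for RSAD2, 0.985 for ISG15, 0.981 for MX1, 0.962 for OAS2, 0.959 for MX2, 0.947 for CMPK2, 0.925 for USP18, 0.913 for IFIT2 and 0.910 for IFIT1. Further genes of the pathway for which it was apart were DDX60 (0.995), CXCL10 (0.968), HERC5 (0.966), DDX58 (0.965), ZBP1 (0.949), BST2 (0.946), PARP14 (0.940), the very large interferon-inducible GTPase locus (0.933), EPSTI1 (0.911), IRF7 (0.880), B2M (0.778) and LGALS3BP (0.776). VNN1 (0.920), RFLNA (0.868) and the galectin 9 locus (0.860) were apart in the same pig. Summed levels set it apart for the other interferon-stimulated genes (0.908), the sensors and adaptors (0.855), the genes typical of interferon gamma (0.843) and the signal transducers (0.753).

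Control pig 2 was apart from the other control pigs for SOCS3 (0.992), DDX58 (0.858), CXCL10 (0.773) and IFNGR1 (0.762), and for the summed neutrophil (0.980), theca and luteal cell (0.905), B and plasma cell (0.888) and inhibitor lists (0.770). Control pig 5 was apart for IFI6 (0.835) and the GTPase locus (0.720). For summed lists, control pig 4 was low for dendritic cell markers (0.766), rpFSH pig 2 low for macrophage and monocyte markers (0.817), and rpFSH pig 1 high for theca and luteal cell markers (0.734).

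Loci that carry no protein-coding type were tested between the groups where they passed the filter, but were not among the genes followed. Of 19257 with a mean of at least 0.5 FPKM, 15 were at least 4 times the highest other pig in rpFSH pig 4. In the other pigs that number ran from 1 (control pig 3) to 68 (rpFSH pig 1). Of the 15, 2 lay beside the 9 genes, MSTRG.10102 and MSTRG.25758. These 2 and a further locus, which was below 4 times, are given as a description. An unnamed locus (MSTRG.10102) on chromosome 13 between 204844699 and 204845099, between MX2 and MX1 and inside the RefSeq gene MX1, was at 21.2 FPKM there and at most 1.73 FPKM in any other pig. The second locus named USP18, on the opposite strand (MSTRG.25758), was at 5.17 FPKM against at most 0.974 FPKM. The second locus named OAS2, likewise on the opposite strand (MSTRG.10811), was at 3.41 FPKM against at most 0.953 FPKM.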

How the results depend on the processing

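With rpFSH pig 4 in the fit the log2 fold changes of the 9 genes were positive in 162 of 162 values over 18 settings, of which the 2 by limma share their fold changes. Leaving out each pig in turn, the log2 fold change ran from -0.054 to 4.91 for RSAD2, from -0.0055 to 2.92 for MX2 and from -0.26 to 2.55 for ISG15, and each was negative without rpFSH pig 4 alone. The same fits gave 0 to 9 of the 9 genes called up, 0 to 6 other interferon-stimulated genes, 258 to 432 loci up and 474 to 861 loci down, against 5, 3, 299 and 648 with all pigs. No filter on counts gave 516 loci up and 1059 down, and protein-coding loci alone gave 72 up and 310 down, with 6 other interferon-stimulated genes. DESeq2 called 0 of the 9 genes. Limma called 0 of the 9 with a pseudocount of 1 or 0.1, 1 other interferon-stimulated gene with either, and 385 loci down with a pseudocount of 1. The cause of these differences was not tested, other than that DESeq2 gave no P to the 9 genes.

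With the replicate number as a block 0 of the 9 genes were called, 1 other interferon-stimulated gene and 327 loci down, with log2 fold changes of the 9 between 0.45 and 1.08. The methods name no pairing. Same-numbered pigs had r between -0.231 and 0.0457, and 0 of 5 pairs correlated best with their own number, so no pairing was seen. Whether same-numbered pigs shared a batch or an order of processing was not tested.

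Co-variation stayed above an adjusted p of 0.05 for 8 of 8 relations on both other scales. On CPM scaled by TMM factors 22 loci were 4 times higher in rpFSH pig 4, and 28 with a mean FPKM minimum of 0.1, with 9 of the 9 genes in each. The promoter motif was not run. Depth limits no value of the 9 genes, since the lowest count was 104.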
